A study of Homo sapiens with 12 samples.

Results

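IFI27, IFI27L2, IFI6, IFITM1, IFITM2, IFITM3, BST2 and LY6E encode small membrane-associated proteins of the interferon response or close relatives of such proteins. They were chosen by gene symbol, and the 8 symbols matched 8 of the 20307 genes in the deposited expression table. Their RNA was measured by RNA-seq in 12 libraries, 3 for each of 4 groups, from 2 established human lines. The cells labelled control are H1299, a lung carcinoma line, with the genotype label WT, and the second H1299 group carries the genotype label DCBLD2 overexpression. The remaining 6 libraries come from THP-1, a line from monocytic leukaemia labelled WT, which had 24 h of the phorbol ester PMA, an agent that makes these cells macrophage-like, followed by 48 h of exposure to either kind of H1299 cell. Supernatant is named in the sample labels and co-culture in the design text, so the mode of exposure is not settled, and every THP-1 library had both PMA and an H1299 exposure. The labels name no empty vector for the control, do not say how DCBLD2 was introduced or whether a line was 1 clone, and do not say whether replicates were separate cultures. P-values therefore reflect the spread among these libraries alone, and that spread may be technical.

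Interferons bind receptors at the cell surface, and the kinases JAK1 and TYK2 then activate transcription factors that bind interferon-stimulated response elements in the promoters of target genes. IFITM proteins sit in plasma and endosomal membranes and hinder the fusion of enveloped viruses, BST2 (tetherin) holds budding virions at the cell surface, and LY6E is a surface protein on a lipid anchor that affects virus entry. IFI27 and IFI6 belong to a family of short hydrophobic proteins of intracellular membranes that type I interferon induces strongly, and IFI27L2 is a further member of that family. In macrophages these genes are commonly used as a readout of interferon exposure.

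The promoters of 6 of the 8 genes were found in a RefSeq table (GRCh38.p14) as 7 windows of 300 bases that lie mostly upstream of a transcript start, with 2 starts for IFI27. IFITM2 and LY6E had no entry. The core of the interferon-stimulated response element, taken as GAAA, any 2 bases and GAAA again, was searched on both strands and occurred in 6 of the 7 windows, against 3.57% of 35116 promoters in the table and 32 of 62 windows (51.6%) of other interferon-stimulated genes. IFI27L2 had no match in its window. The 2 IFI27 windows overlap and hold the same matches, and each is counted. The stretches around the matches are shown because 5 of the genes share this element, and capitals mark each match on either strand. They lie at chr1:27672251-27672373 (minus strand) for IFI6, chr11:313990-314019 (plus) for IFITM1, chr11:320885-320913 (minus) for IFITM3, chr14:94110603-94110675 (plus) for IFI27 and chr19:17405720-17405785 (minus) for BST2.
IFI6: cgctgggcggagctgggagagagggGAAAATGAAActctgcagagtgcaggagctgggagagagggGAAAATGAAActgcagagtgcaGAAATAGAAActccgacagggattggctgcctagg
IFITM1: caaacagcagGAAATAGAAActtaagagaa
IFITM3: gGAAAAGGAAActgttgaGAAACCGAAAc
IFI27: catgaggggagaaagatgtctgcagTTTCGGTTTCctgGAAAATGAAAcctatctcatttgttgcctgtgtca
BST2: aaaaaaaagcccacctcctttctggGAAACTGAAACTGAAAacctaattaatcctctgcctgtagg

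IFI6 held 3 copies, beginning at positions -156, -115 and -93 relative to its start, and the first and second copies have the same 10 letters. IFI27 held 1 copy on each strand, at -108 and -95 relative to the nearer of its starts. In BST2 the 2 matches overlap and share 4 bases. IFITM3 held 2 copies, at -52 and -35, and IFITM1 held 1 copy in the stretch shown, at -40, and a second that begins at -6 and reaches past the start. TTCNNNGAA, the core of the gamma-activated site of interferon gamma targets, occurred in 4 of the 7 windows (7.66% of all promoters), in IFI27 (the same site in both windows), IFITM1 and BST2. Its copy in IFI27 overlaps both response-element matches. A match is a string of letters, not a measured binding site, and no binding was measured in this study.

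**Figure D1:**
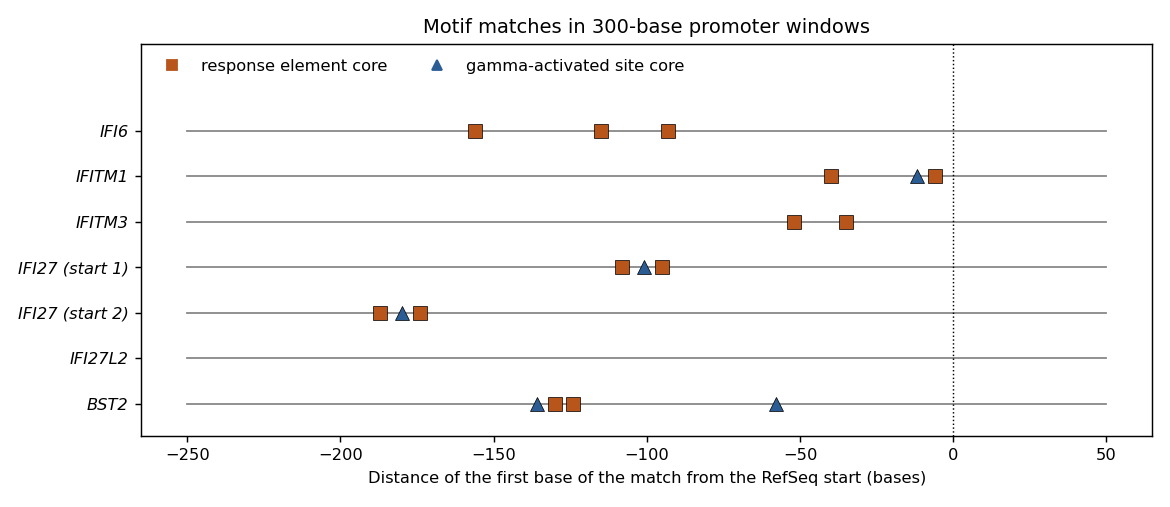
Positions of sequence matches in the promoter windows of 6 genes, as distance in bases from the transcript start; each line is 1 window, with separate marks for the response-element core and the gamma-activated-site core. All response-element matches begin between -187 and -6, and the IFI27L2 window has none.

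IFITM1, IFITM2 and IFITM3 are close copies, which bears on every value given for them. Their coding sequences (GENCODE 29) were 93.9% identical between IFITM2 and IFITM3 (372 of 396 aligned bases), 91.4% between IFITM1 and IFITM3 and 88% between IFITM1 and IFITM2. The starts of the coding sequences are shown because differences between IFITM2 and IFITM3, 11 bases counted in IFITM3, fall there. Capitals mark bases that differ between IFITM2 and IFITM3 or are present in IFITM3 alone, and IFITM1 begins further into the shared sequence and is given in lower case.
IFITM2: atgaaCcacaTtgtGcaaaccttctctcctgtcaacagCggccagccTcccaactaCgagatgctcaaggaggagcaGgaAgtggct
IFITM3: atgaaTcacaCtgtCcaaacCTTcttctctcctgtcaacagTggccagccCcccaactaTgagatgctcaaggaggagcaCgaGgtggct
IFITM1: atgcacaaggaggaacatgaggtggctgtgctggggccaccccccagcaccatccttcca

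Of the 50-base words in the IFITM1 coding sequence, 46.6% also occurred in an annotated transcript of IFITM2 and 30.1% in one of IFITM3. In the other direction, 14.4% of the IFITM2 words and 28% of the IFITM3 words occurred in IFITM1. The other 5 genes shared no such word with any of the 8. The 3 IFITM genes were also the only ones of the 8 with estimated counts that were not whole numbers, as happens when a program divides reads between genes. The split among IFITM1, IFITM2 and IFITM3 is therefore uncertain, and their sum is given beside the single genes. On GRCh38, IFITM2 (ENSG00000185201, 307631 to 315272, plus strand), IFITM1 (ENSG00000185885, 313506 to 315272, plus) and IFITM3 (ENSG00000142089, 319669 to 327537, minus) lie close together on chromosome 11. The whole annotated span of IFITM1 lies within that of IFITM2, on the same strand. IFI6, IFITM2, IFITM3 and LY6E overlap annotated noncoding genes on the opposite strand that are not in the table. IFITM3 also overlaps the noncoding genes AC136475.7 and AC136475.8 on its own strand, likewise not in the table. Strand handling in the counting is not given in the sources used here.

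Depth ran from 14578887 to 23388187 estimated reads for the H1299 libraries and from 18606739 to 26787853 for those of THP-1. DCBLD2 itself goes against the labels in H1299, at 247, 148 and 196 TPM (a length-scaled abundance) in the labelled control libraries and 105, 98.2 and 92.5 TPM in those labelled DCBLD2 (log2 fold change -1.27 ± 0.17 SE, adjusted p = 0.00284, edgeR). In THP-1, which the labels do not give as overexpressing the gene, DCBLD2 was also lower in labelled DCBLD2 (log2 fold change -0.81, adjusted p = 3.18e-13, edgeR). All directions below follow the labels. Exchanged labels of the H1299 libraries would turn every direction between the labelled H1299 groups. Directions in THP-1 would turn only if the H1299 cells used for exposure were exchanged as well. Whether either was exchanged was not tested. The groups are called the libraries labelled control and labelled DCBLD2. Of 14 myeloid markers, 14 reached 1 TPM in THP-1 and at most 3 in H1299, where PTPRC and AIF1 were at 0, and 9 of 12 carcinoma markers reached it in H1299. KRT19 and EPCAM were at 0 in THP-1 but also under 1 TPM in both H1299 groups. In THP-1, 6 of 12 carcinoma markers reached 1 TPM in labelled control (sum 637 to 649 TPM) and 8 of 12 in labelled DCBLD2 (sum 546 to 562 TPM). From THP-1 labelled control to labelled DCBLD2, mean KRT18 went from 0.204 to 1.01 TPM and KRT8 from 0.283 to 0.524 TPM. AXL went from 26.7 to 8.87 TPM and CAV1 from 146 to 110 TPM. In H1299 labelled control, KRT18 was at 1379 TPM and KRT8 at 539 TPM. Of the myeloid markers, 9 had a higher mean in THP-1 labelled DCBLD2 than in labelled control, among them FCER1G (1249 to 2166 TPM) and TYROBP (869 to 1733 TPM), and 5 had a lower one, among them ITGB2 (3139 to 2764 TPM) and ITGAM (131.5 to 69.7 TPM). Their sum was 8697 to 8744 TPM in labelled control and 10670 to 10880 TPM in labelled DCBLD2. The share of reads also differed between the THP-1 groups for mitochondrial genes (3.475% to 3.509% against 2.462% to 2.583%) and for 82 ribosomal protein genes (3.729% to 3.753% against 5.14% to 5.418%). The part of these differences in the results below was not tested. In bulk RNA, fewer cells of a type and less RNA per cell cannot be told apart.

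THP-1 cells exposed to H1299 labelled DCBLD2 held more RNA of all 8 genes than THP-1 cells exposed to H1299 labelled control. IFI27 differed most, at 9.65-fold, and IFITM2 least. The summed level of the 8 genes was 1009 TPM ± 8.89 (SD, n = 3) in labelled control and 2738 TPM ± 33.6 (SD, n = 3) in labelled DCBLD2. In edgeR's quasi-likelihood test across 13120 genes with Benjamini-Hochberg adjustment, 8 of 8 were called higher at an adjusted p under 0.05, where 34.5% of all genes were called higher. The library ranges of the 2 groups did not overlap for 8 of 8, against 64.9% of all genes. In 7 of 8 the fold change was at least 2-fold higher, against 3.95% of all genes. The median log2 fold change was 1.36 over the 8 genes and 0.0005 over all genes tested.

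IFI27 (ENSG00000165949, chromosome 14, 94104836 to 94116698, plus strand) encodes a hydrophobic protein reported at mitochondria and the nuclear envelope. It stood at 49.0, 46.8 and 49.8 TPM in THP-1 labelled control and at 461, 460 and 447 TPM in THP-1 labelled DCBLD2. The 2 groups lie far apart, and each is tight. The log2 fold change was 3.27 ± 0.04 (SE, adjusted p = 1.12e-26, edgeR), the 19th largest change of 13120 genes in either direction.

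Its neighbour IFI27L2 (ENSG00000119632, chromosome 14, 94127779 to 94130253, minus strand) held 53.6, 45.9 and 54.0 TPM in labelled control, close to IFI27 in the same libraries. In labelled DCBLD2 it held 112, 107 and 102 TPM. All 3 libraries were above the control range, but the rise was far smaller than that of IFI27, with a log2 fold change of 1.10 ± 0.07 (SE, adjusted p = 4.14e-13, edgeR). The coding sequences of the 2 genes were 78.4% identical. IFI27 has the same 2 matches to the response-element core in each promoter window, and IFI27L2 none. Among the other windows, IFI6 had 3 matches and rose by 1.15 on the log2 scale. IFITM1 (2.98), IFITM3 (1.57) and BST2 (1.03) had 2 matches each. Whether matches bear on the size of a rise was not tested.

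IFI6 (ENSG00000126709, chromosome 1, 27666061 to 27672218, minus strand), which is known to limit cell death and virus replication at the endoplasmic reticulum, was the most abundant of the 8 in both THP-1 groups. Its level was 388, 397 and 401 TPM in labelled control and 837, 877 and 858 TPM in labelled DCBLD2. The groups were separate, and the log2 fold change was 1.15 ± 0.02 (SE, adjusted p = 3.25e-24, edgeR). This gene thus had a larger gain in TPM than IFI27 and a smaller ratio.

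**Figure D2:**
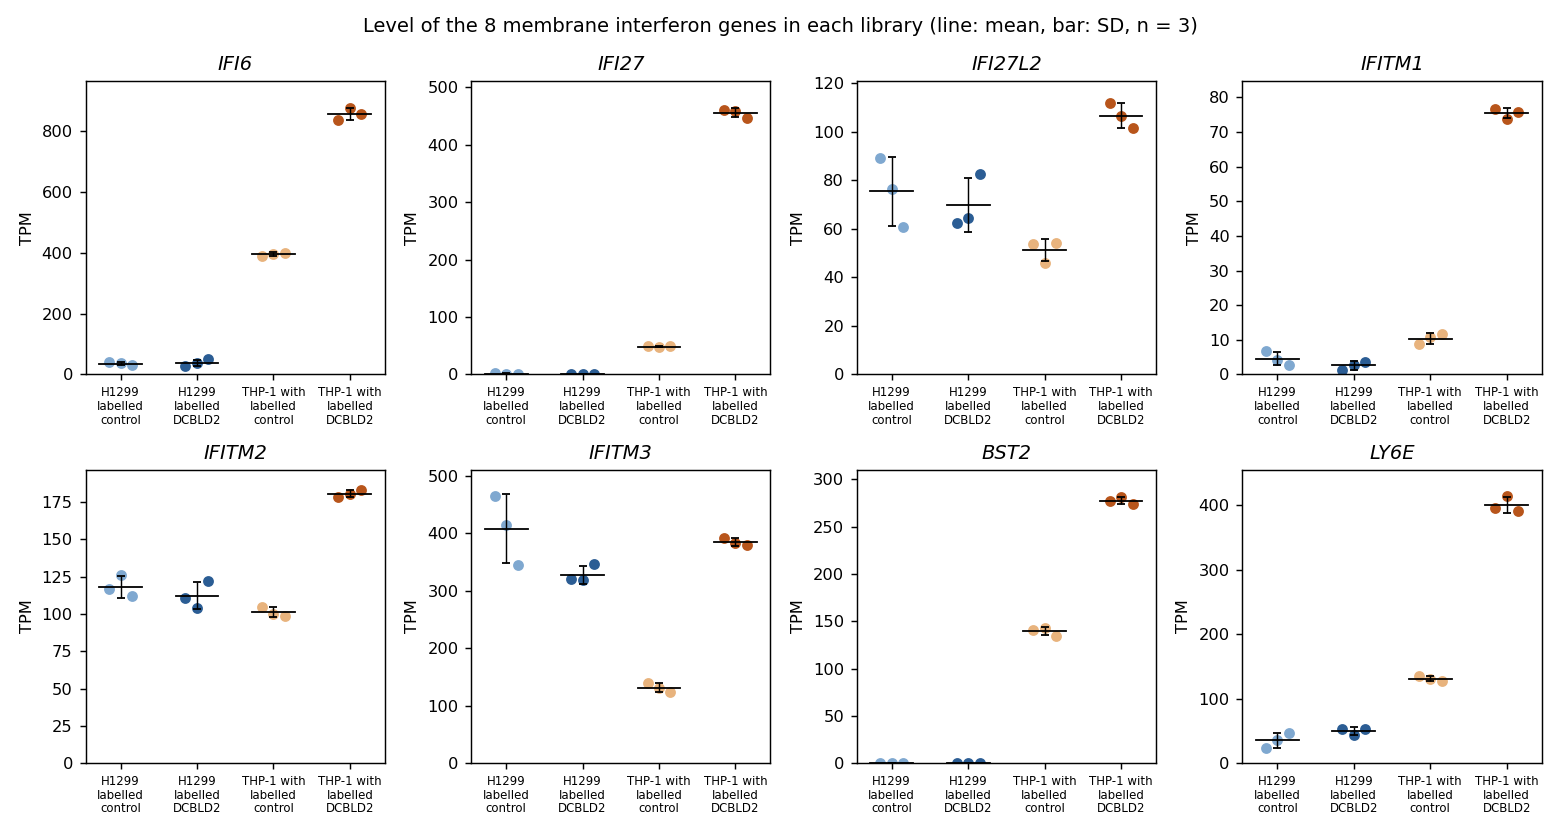
Level of the 8 genes, 1 panel for each gene on its own linear axis in TPM, with 1 point for each of the 12 libraries, a line for each group mean and a bar for the SD (n = 3). In THP-1 the labelled DCBLD2 points of every gene lie above the labelled control points, whereas the H1299 groups overlap, and BST2 and IFI27 lie at the bottom of their axes in H1299.

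IFITM1, found mainly at the plasma membrane, was the least abundant of the 8 in THP-1. It rose from 8.70, 10.7 and 11.7 TPM in labelled control to 76.7, 73.8 and 75.8 TPM in labelled DCBLD2. The log2 fold change was 2.98 ± 0.10 (SE, adjusted p = 3.35e-19, edgeR), a 7.88-fold rise and the 34th largest change in either direction. IFITM1 remained below the other 7 genes in level even after this rise.

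IFITM3, an endosomal protein that restricts viruses entering by that route, stood at 139, 131 and 124 TPM in labelled control and 392, 383 and 379 TPM in labelled DCBLD2. Its log2 fold change was 1.57 ± 0.04 (SE, adjusted p = 5.52e-22, edgeR). IFITM2, also endosomal, held 105, 100.01 and 98.9 TPM against 178, 181 and 183 TPM. By the edgeR estimate it was the only one of the 8 whose change was under 2-fold. Its log2 fold change was 0.85 ± 0.04 (SE, adjusted p = 4.19e-16, edgeR).

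Summed, the IFITM genes stood at 243 TPM ± 9.12 (SD, n = 3) in labelled control and at 641 TPM ± 5.67 (SD, n = 3) in labelled DCBLD2. The sum rose by 1.39 ± 0.03 (SE) on the log2 scale (adjusted p = 1.58e-23, edgeR). The summed count used in that test does not depend on how reads were divided among the 3. The summed TPM depends on it in part, since TPM scales each gene by its transcript length. Within the summed TPM, the IFITM1 share went from 4.28% ± 0.775 (SD, n = 3) to 11.8% ± 0.165 and the IFITM2 share from 41.7% ± 0.431 to 28.2% ± 0.598. The IFITM3 share ran from 52.9% to 55% in labelled control and from 59.4% to 60.6% in labelled DCBLD2. The library ranges of all 3 shares were separate, and the shares, unlike the summed count, depend on the division of reads.

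BST2 (ENSG00000130303, chromosome 19, 17402939 to 17405648, minus strand) held 140, 143 and 135 TPM in THP-1 labelled control and 277, 281 and 274 TPM in labelled DCBLD2, a log2 fold change of 1.03 ± 0.03 (SE, adjusted p = 1.47e-20, edgeR). LY6E (ENSG00000160932, on chromosome 8) held 135, 130 and 128 TPM against 395, 414 and 391 TPM. Both surface proteins were at like levels in labelled control, and LY6E stood higher in labelled DCBLD2. The LY6E log2 fold change was 1.65 ± 0.03 (SE, adjusted p = 2.19e-25, edgeR).

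**Figure D3:**
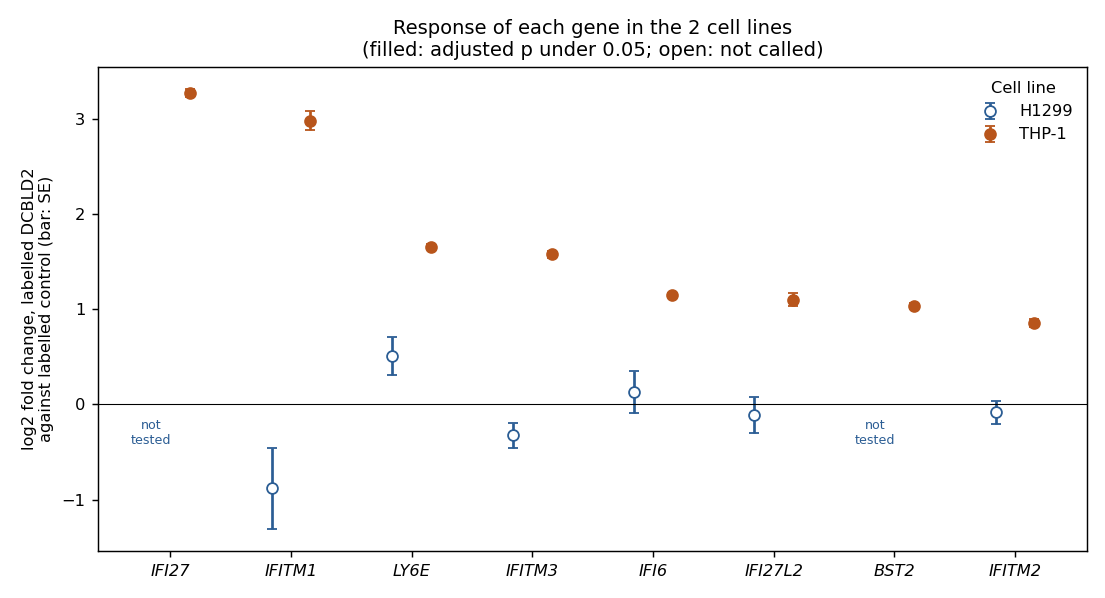
Log2 fold change of each of the 8 genes, labelled DCBLD2 against labelled control, in H1299 and in THP-1, with bars of 1 SE from edgeR; filled points were called and open points were not. The 8 THP-1 values run from 0.85 to 3.27, and the 6 H1299 values that passed the filter lie between -0.88 and 0.51.

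The order of the 8 genes by TPM, which is per transcript length and so can be compared between genes, changed between the THP-1 groups. In labelled control IFI6 led, BST2, IFITM3 and LY6E followed with overlapping neighbours, then IFITM2, then IFI27L2 and IFI27, which overlapped, and last IFITM1. In labelled DCBLD2 IFI27 stood second, after IFI6 and above LY6E and IFITM3, whose library ranges overlapped. BST2, IFITM2, IFI27L2 and IFITM1 followed in that order without overlap. IFI27 made up 4.81% ± 0.153 (SD, n = 3) of the summed level of the 8 genes in labelled control and 16.7% ± 0.211 in labelled DCBLD2. The IFI6 share fell from 39.2% ± 0.998 to 31.3% ± 0.553 and the BST2 share from 13.8% ± 0.389 to 10.1% ± 0.0089, with separate library ranges, although both genes rose in level.

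**Figure D4:**
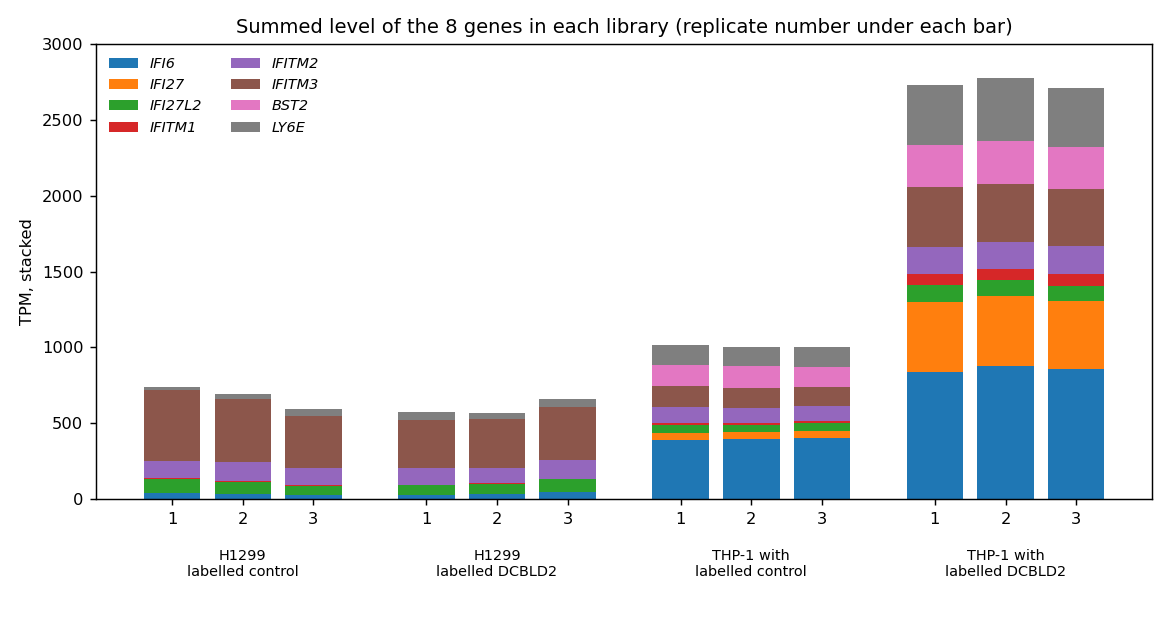
TPM of the 8 genes stacked in 1 bar for each of the 12 libraries, with colours for genes and replicate numbers under the bars. IFITM3 is the largest block in the 6 H1299 bars and IFI6 in the 6 THP-1 bars, and the IFI27 block, 4.81% of the sum in THP-1 labelled control, widens to 16.7% in THP-1 labelled DCBLD2.

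In H1299 itself, 0 of the 6 genes with enough reads were called between labelled DCBLD2 and labelled control by edgeR, where 20.9% of 12773 genes were called in either direction. At an unadjusted p under 0.05 there were 2, IFITM3 and LY6E, and DESeq2 and limma called 0. Their median log2 fold change was -0.10, against 0.0047 over all genes tested. Library ranges overlapped for all 6, while they were separate for 37.5% of all genes.

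IFITM3 was the most abundant of the 8 in H1299, at 465, 415 and 344 TPM in labelled control and 320, 318 and 346 TPM in labelled DCBLD2. The ranges touched at 1 library of each group, and the log2 fold change was -0.32 ± 0.13 (SE, adjusted p = 0.101, edgeR). LY6E held 23.5, 35.2 and 46.7 TPM against 52.4, 43.4 and 53.5 TPM, a log2 fold change of 0.51 ± 0.20 (SE, adjusted p = 0.0979, edgeR). In a fit of all 12 libraries both passed the threshold, LY6E with an adjusted p of 0.0205 and IFITM3 with 0.0269 (edgeR). That fit takes 1 spread per gene for both lines. H1299 replicates differed more than those of THP-1 (chi-square per gene of 10.8 to 36.6 against 1.55 to 2.3), so it can understate the H1299 spread. IFITM3 also passed without labelled control replicate 3 (adjusted p = 0.0418, edgeR).

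IFITM2 stood at 117, 126 and 112 TPM in labelled control and 111, 104 and 122 TPM in labelled DCBLD2 (log2 fold change -0.08 ± 0.12 SE, adjusted p = 0.650, edgeR). IFITM1 was low, at 6.67, 4.22 and 2.82 TPM against 1.28, 2.71 and 3.70 TPM (-0.88 ± 0.43, adjusted p = 0.162, edgeR). The IFITM sum was 531 TPM ± 65.9 (SD, n = 3) in labelled control and 443 TPM ± 25.4 (SD, n = 3) in labelled DCBLD2, and its log2 fold change of -0.26 ± 0.12 (SE) did not pass (adjusted p = 0.152, edgeR). No difference in these genes was detectable beyond the spread between H1299 libraries.

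IFI6 held 39.1, 36.3 and 29.3 TPM in H1299 labelled control and 28.2, 36.9 and 49.4 TPM in labelled DCBLD2 (log2 fold change 0.13 ± 0.22 SE, adjusted p = 0.696, edgeR). IFI27L2 held 89.2, 76.3 and 60.6 TPM against 62.6, 64.4 and 82.4 TPM (-0.11 ± 0.19, adjusted p = 0.700, edgeR). For both genes the ranges of the labelled groups overlapped.

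IFI27 and BST2 were near the detection limit in H1299 and did not pass the filter on low counts there. With no filter, neither was called by edgeR (IFI27 -0.65, adjusted p = 0.569, and BST2 0.48, adjusted p = 0.818). IFI27 stood at 1.74, 0.727 and 0.331 TPM in labelled control and 0.699, 0.404 and 0.807 TPM in labelled DCBLD2, from 22 and 12 reads in all. The ratio of labelled DCBLD2 to labelled control per read sequenced was 0.634, with an exact 95% counting interval of 0.286 to 1.34. BST2 had 3, 1 and 0 reads in labelled control and 0, 2 and 3 in labelled DCBLD2. Such intervals cover counting error only. A difference in either gene was not detectable at this depth.

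The response in THP-1 was then set against that in H1299 in 1 model of all 12 libraries, as the difference of the 2 log2 fold changes. Because the model takes 1 spread per gene for both lines, its SE can understate the spread in H1299. By edgeR, 7 of the 8 genes had a larger change in THP-1, where 19.3% of 14244 genes were called in that direction. IFI27, counted among the 7, and BST2 passed the filter of this model only through their THP-1 reads. Of all genes called, 49.7% were in the direction of a larger change in THP-1, and 61.9% when only library totals set the scale. IFI27 (3.88 ± 0.53 SE, adjusted p = 8.45e-05) and IFITM1 (3.81 ± 0.40, adjusted p = 1.06e-05) had the largest differences. IFITM3 followed at 1.89 ± 0.15 (adjusted p = 9.97e-07, edgeR), ahead of IFI27L2 (1.19 ± 0.21), LY6E (1.14 ± 0.21), IFI6 (1.0001 ± 0.21) and IFITM2 (0.93 ± 0.13). The IFI27 difference rests on the 22 and 12 reads of that gene in the H1299 groups, and it was 3.21 (adjusted p = 0.00047, edgeR) without H1299 labelled control replicate 1. BST2 did not pass, at 0.50 ± 1.02 (adjusted p = 0.758, edgeR), and had at most 3 reads in any H1299 library.

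Levels in the 2 lines were compared in the labelled control groups, where cell line, PMA and exposure differ together and cannot be told apart. THP-1 was called higher for 5 of 8 genes and lower for 1 by edgeR, where 42.3% and 43.6% of all genes were called. IFI27 and BST2, both among the 5, passed the filter only through their THP-1 reads. Library ranges of TPM did not overlap for 8 of 8 genes, against 85.2% of all genes. With library totals alone the share of called genes that were higher in THP-1 was 38.1%, against 49.2% with TMM scaling.

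BST2 had 4876 reads in THP-1 labelled control and 4 in H1299 labelled control, a ratio per read sequenced of 1189 with an exact 95% counting interval of 464.2 to 4367. IFI27 (log2 difference 5.64 ± 0.22 SE), IFI6 (3.78 ± 0.16), LY6E (2.24 ± 0.16) and IFITM1 (1.27 ± 0.27) were also higher in THP-1. Without H1299 labelled control replicate 1 the IFI27 value was 6.39, and with limma on log2(TPM + 1) it was 4.75. IFITM3 was lower in THP-1, by a log2 difference of -1.36 ± 0.10 (SE, adjusted p = 1.03e-08, edgeR). IFI27L2 (-0.28 ± 0.15, adjusted p = 0.0971, edgeR) and IFITM2 (-0.06 ± 0.09, adjusted p = 0.548, edgeR) did not pass, although both were called lower in THP-1 with library totals alone (-0.71 and -0.49) and with limma on log2(TPM + 1) (-0.54 and -0.22).

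Across the 4 groups the order differed by gene. THP-1 labelled DCBLD2 stood highest for IFI27, IFI27L2, IFI6, IFITM1, IFITM2, BST2 and LY6E, with no overlap with the next group. IFITM3 was highest on average in H1299 labelled control, whose range overlapped that of THP-1 labelled DCBLD2. The H1299 groups were neighbours and overlapped for 7 of the 8 genes, and for IFITM3 they also overlapped but the mean of THP-1 labelled DCBLD2 lay between theirs. IFI27L2, IFITM2 and IFITM3 were lowest in THP-1 labelled control, and the other 5 were lowest in one of the H1299 groups. Within H1299 the order of the 8 genes was the same in both groups: IFITM3, IFITM2, IFI27L2, LY6E and IFI6, which overlapped, IFITM1, IFI27 and BST2.

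The rest of the interferon pathway was read from lists of genes, given as counts and medians. Of 21 interferon genes, 0 had any read in THP-1. In H1299 labelled control 1 had reads (IFNE, 15 reads over 3 libraries), and in H1299 labelled DCBLD2 4 had reads (IFNA5, IFNL2, IFNL3 and IFNE, 11 reads over 3 libraries), at no more than 0.527 TPM in any library. None could be tested. RNA of these genes in the sequenced cells at harvest was thus at or near 0 in every library, and interferon protein was not measured.

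Of 5 receptor genes tested in THP-1, 2 were called higher and 1 lower, with a median log2 fold change of -0.02, where 34.5% and 33.6% of all genes were called. IFNGR2, a chain of the receptor for interferon gamma, rose from 153 to 200 TPM (0.42 ± 0.02 SE), and IFNAR1, a chain of the type I receptor, from 43.5 to 52.2 TPM (0.37 ± 0.03). The gene called lower was IFNAR2, the other chain of the type I receptor (log2 fold change -0.24), which is named here after its value was seen. IFNGR1 (-0.02 ± 0.04) and IL10RB (-0.03 ± 0.03) did not pass. In H1299 0 of 6 receptor genes were called by edgeR, where 10.3% of all genes were called higher and 10.6% lower.

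Among 13 signal transduction genes, 7 were called higher and 2 lower in THP-1, with a median of 0.25, against 34.5% and 33.6% of all genes. The kinase JAK1 fell from 35.1 to 28.9 TPM (log2 fold change -0.24 ± 0.03 SE). IRF3 (0.02 ± 0.03) and TYK2 (0.03 ± 0.02) did not pass. In H1299, 3 of 13 were called higher and 3 lower, against 10.3% and 10.6% of all genes, and JAK1 rose (0.50 ± 0.13, adjusted p = 0.0264, edgeR).

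Of 6 feedback inhibitors of the pathway, 2 were called higher and 2 lower in THP-1, which is near the share over all genes (34.5% and 33.6%). The phosphatase gene PTPN2 (0.20 ± 0.05 SE) and SOCS3 (0.48 ± 0.06), which blocks cytokine receptor kinases, rose. The phosphatase gene PTPN6 (-0.21 ± 0.02) and IRF2 (-0.31 ± 0.03), a repressor at interferon target promoters, fell. In H1299, where 10.3% of all genes were called higher, 2 of 4 tested were, PTPN2 (0.61 ± 0.15) and IRF2 (0.41 ± 0.12).

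Of 49 other interferon-stimulated genes, 45 were called higher, 1 lower and 3 neither in THP-1, against 34.5% higher and 33.6% lower over all genes. The median log2 fold change of the 49 was 1.01, and 26 rose at least 2-fold, against 3.95% of all genes. Genes of this list with the highest TPM, chosen whatever their change, moved less than the list's median except ISG15. ISG15, a ubiquitin-like modifier, held 32.6 TPM ± 2.01 (SD, n = 3) in labelled control and 83.3 TPM ± 1.98 in labelled DCBLD2, and rose by 1.39 ± 0.07 (SE) on the log2 scale. LAP3, an aminopeptidase (0.28 ± 0.03), CNP, a membrane-bound phosphodiesterase (0.29 ± 0.03), UBE2L6, which conjugates ISG15 (0.11 ± 0.04), and TAP1, a peptide transporter for antigen presentation (0.06 ± 0.02), rose by less. ADAR, the RNA-editing enzyme, fell from 119 to 103 TPM (log2 fold change -0.16 ± 0.02). In H1299 38 of the 49 could be tested. Their median was 0.16, and 7 were called higher and 3 lower, against 10.3% and 10.6% of all genes. By the test of the difference, the change was larger in THP-1 for 26 of 49 and smaller for 3. Genes of the list that were not tested in H1299 entered that test through their THP-1 reads. Over all 14244 genes, 19.3% were called larger and 2775 genes smaller.

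**Figure D5:**
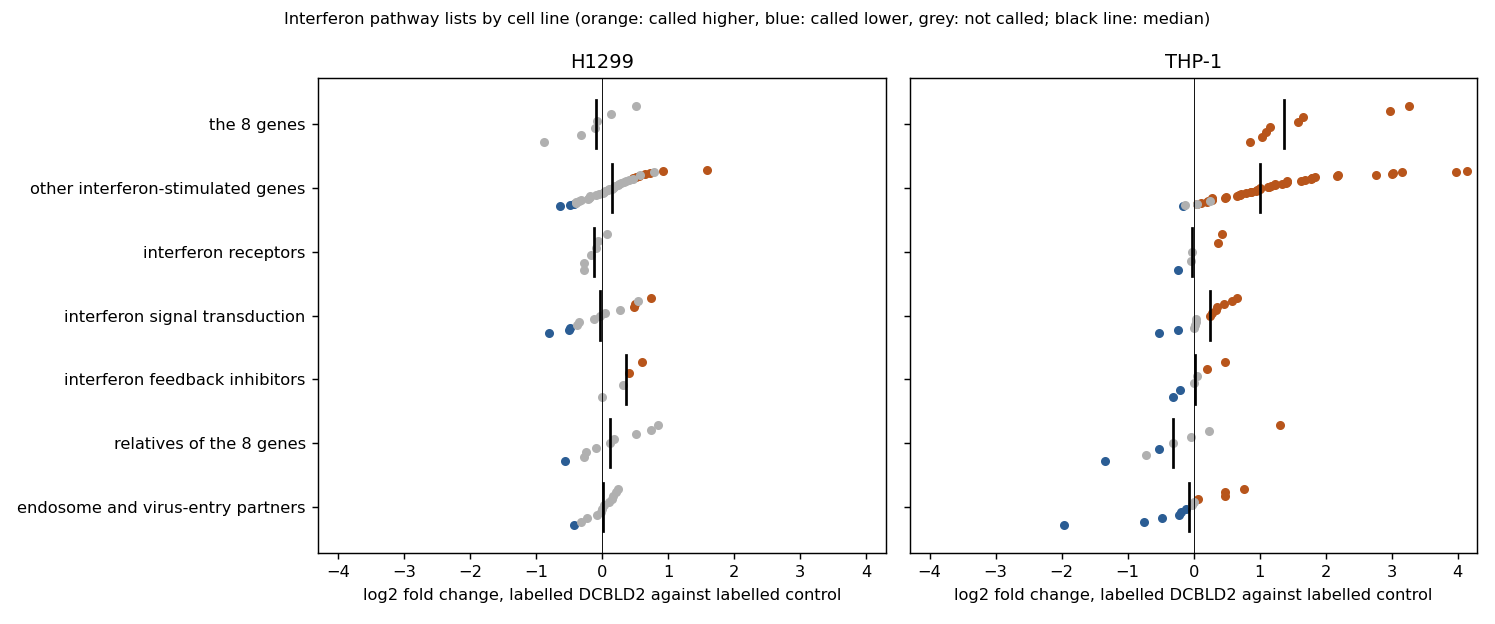
Log2 fold change, labelled DCBLD2 against labelled control, of the 8 genes and of each gene tested in the lists of the interferon pathway and of related proteins, in H1299 and THP-1; each point is 1 gene (orange called higher, blue called lower, grey neither) and black lines mark list medians. In THP-1 the medians of the 8 genes (1.36) and of the other interferon-stimulated genes (1.01) lie above those of the receptors (-0.02), signal transduction (0.25) and feedback inhibitors (0.03).

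Of 21 relatives of the 8 genes, 7 had enough reads to be tested in THP-1, of which 1 was called higher, 2 lower and 4 neither, against 34.5% higher and 33.6% lower over all genes. IFI27L1, of the same family as IFI27 and IFI27L2, held 11.3 TPM ± 1.74 (SD, n = 3) in labelled control and 26.8 TPM ± 4.08 in labelled DCBLD2, and rose by 1.31 ± 0.13 (SE) on the log2 scale. PLAUR, the urokinase receptor and a relative of LY6E, fell from 2189 to 1489 TPM (log2 fold change -0.52 ± 0.02), and LY6G5B fell from 7.30 to 2.91 TPM (-1.34 ± 0.17). CD59, a complement inhibitor of the same fold, did not pass (-0.04 ± 0.02). In H1299 1 of 9 was called lower and 0 higher, against 10.6% and 10.3% of all genes.

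Among 12 endosome and virus-entry genes, 4 were called higher and 6 lower in THP-1, against 34.5% and 33.6% of all genes, so the count of rises is at the share over all genes. The tetraspanin CD81 rose from 994 to 1278 TPM (0.48 ± 0.02 SE). The lysosomal proteases CTSB (1783 to 1044 TPM, log2 fold change -0.75 ± 0.01) and CTSL (1618 to 1131 TPM, -0.49 ± 0.02), which process the entry proteins of several viruses, fell. CD63, a tetraspanin of late endosomes, did not pass (0.01 ± 0.02). In H1299 1 of the 12 was called, and it was lower, where 10.6% of all genes were called lower and 10.3% higher.

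For each of the 8 genes, the 2 genes with the most similar pattern over the 12 libraries were taken from 11341 candidates. Likeness was the root mean square difference of log2(CPM + 0.5) values centred on each gene's own mean. Candidates were protein-coding genes tested in both lines, a filter that IFI27 and BST2 themselves did not pass in H1299. Genes near 0 in H1299 could therefore not be named as nearest. This is a description, since the libraries fall into 2 lines. IFITM2 was followed most closely, by SELENOH (0.0603) and TIMM17B (0.0616). IFI27L2 was nearest to MGST3 (0.126) and FAU (0.132), and IFITM3 to LGALS1 (0.121) and PTRHD1 (0.160). IFI6 was nearest to APOE (0.253) and CARD6 (0.254), BST2 to CXCL3 (0.307) and CXCL1 (0.344), and LY6E to KCTD12 (0.279) and MEF2C (0.381). IFITM1 (MEF2C 0.637, SLC9A9 0.645) and IFI27 (S100A4 0.794, RCAN1 0.906) had no candidate as near as those of the other 6. Among the 8 themselves, the nearest pair was IFI27L2 and IFITM2 (0.168) and the farthest IFITM3 and BST2 (4.11).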

How the data were processed

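RNA-seq of 12 libraries was analysed from 1 table of 20307 genes that holds, for each gene and library, the TPM and the estimated count that the authors deposited, the latter not normalized. Per the labels' protocols, RNA was taken with Trizol and libraries were made from enriched, fragmented mRNA with a NEBNext Ultra kit. The submitters' processing notes name RSEM, HISAT2, StringTie 1.3.1, Bowtie2 2.2.8 and fastp 0.18.0, and the build hg38. Each library held 12.02% to 13.37% values that were not exactly whole. How strand was handled, and which annotation was used, is not given in the sources used here.

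Estimated counts were rounded and tested with edgeR 4.0.16 (R 4.3.3), by the quasi-likelihood test two-sided, after TMM scaling and filterByExpr at a minimum of 10 counts, in 1 fit per cell line, and in 1 fit of 12 libraries for differences between lines. Benjamini-Hochberg adjustment ran over all genes tested, and calls used an adjusted p under 0.05. SE is the log2 fold change divided by the square root of F. TPM means ± SD describe levels. Pairs of replicates differed by more than sampling noise (chi-square per gene of 10.8 to 36.6 in H1299 and 1.55 to 2.30 in THP-1), and all were counted. The fit of 12 libraries takes 1 spread per gene for both lines and can understate that of H1299.

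The 8 genes and the lists were chosen with earlier results of these data known. Of each list, the up to 4 genes (6 for other interferon-stimulated genes) of highest mean TPM are named whatever their change, with the 2 nearest genes of each of the 8; 1 gene that this rule names is not reported here. On simulated counts, 90% of genes changed 2-fold were recovered in H1299 (12707 genes), 91.9% in THP-1 (13021), 79.6% for the difference (13932) and 92.9% for the levels in the 2 lines (13937). At 1.5-fold these were 49.5%, 85.9%, 36.2% and 58.9%. Unchanged genes made up 2.11%, 3.3%, 7.44% and 5.16% of the calls, in the same order. Unlike these data, the simulation changed few genes and otherwise gave each gene 1 mean in all groups. Alternatives were DESeq2 1.42.0, limma 3.58.1 on log2(TPM + 1) and log2(TPM + 0.1), DESeq2 size factors, library totals alone, other filters, a 1.5-fold threshold, another spread model, the replicate number as a block and leaving out each library. Positions are from GENCODE 29 on GRCh38 (98.9% of identifiers matched). Promoter sequences are from RefSeq.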

Additional observations from a re-analysis of the deposited data

Results flagged for a closer look

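The change between the labelled groups differed between THP-1 and H1299 for 7 of the 8 genes by the edgeR test of the difference itself. The log2 difference was 3.8775 for IFI27, 3.8143 for IFITM1, 1.8884 for IFITM3, 1.194 for IFI27L2, 1.1388 for LY6E, 1.0001 for IFI6 and 0.9306 for IFITM2. Each is the THP-1 change minus the H1299 change, and the THP-1 change was the larger in all 7. IFI27 passed the filter of that test only through its THP-1 reads. The groups of 3 libraries were too small to look for single libraries far from the others.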

How the results depend on the processing

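In THP-1, 141 of 141 alternative values of the 8 single genes kept direction and call. The IFITM sum was fitted once. In the fit of all 12 libraries, H1299 had 1 gene called higher (LY6E, 0.51) and 1 lower (IFITM3, -0.31). Leaving out 1 library at a time, 0 to 1 was called lower in H1299, the one being IFITM3 (-0.45) without labelled control replicate 3. Between lines, the genes called lower in THP-1 numbered 1 to 2 when 1 library was left out, the second being IFI27L2 (-0.42) without labelled control replicate 3 of H1299, 3 with library totals alone and 3 with limma on log2(TPM + 1). Directions that turned were all of values not called: H1299 IFI27L2 ran from -0.2936 to 0.0139 and H1299 IFI6 from -0.1478 to 0.2943 when 1 library was left out, the BST2 difference from -0.665 to 1.1814, and the IFITM2 level between lines from -0.099 to 0.0737, and it was 0.0153 with DESeq2. The BST2 difference passed in limma on log2(TPM + 1) (0.96, adjusted p = 0.000306). Of all genes, H1299 calls numbered 2669, against 514 without labelled DCBLD2 replicate 2, 1374 without its replicate 1, 1649 without labelled control replicate 3, 5056 in the fit of all 12 libraries and 134 with the 1.5-fold threshold. THP-1 calls numbered 8941, against 1503 with that threshold and 4531 with the common H1299 spread in a likelihood ratio test. Library totals alone moved the median log2 difference of all genes between lines from -0.03 to -0.46. The replicate number as a block left 0, 8 and 7 of the 8 genes called in H1299, in THP-1 and for the difference, and 1797 and 8990 genes overall in H1299 and THP-1. Like numbers did not pair the samples, with correlations of -0.371 to -0.112 in H1299 and 0.02 to 0.05 in THP-1. Between unlike numbers the correlations ran from -0.221 to 0.475 in H1299 and from -0.059 to 0.021 in THP-1. The highest in H1299 was between labelled control replicate 2 and labelled DCBLD2 replicate 3. A pairing under other numbers was not tested. The causes of the changes between settings were not tested either. Depth limits IFI27 and BST2 in H1299.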
